A study of Mus musculus with 16 samples.

Results

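The 8 genes described here make, store, take up and degrade serotonin, or encode a peptide that is stored with it: Tph1, Ddc, Slc18a1, Slc18a2, Slc6a4, Maoa, Maob and Tac1. They were chosen by name from the 48440 genes of each table, and all 8 were listed in the duodenal, jejunal and ileal tables. Serotonin is made from tryptophan, first by tryptophan hydroxylase 1 (Tph1), the rate-limiting enzyme outside the brain, and then by aromatic L-amino acid decarboxylase (Ddc). Most of the serotonin of the body is made in the gut, by enterochromaffin cells, a kind of enteroendocrine cell (EEC). These cells load it into vesicles with the vesicular monoamine transporters VMAT1 (Slc18a1) and VMAT2 (Slc18a2), and many of them also make substance P from Tac1. Released serotonin is taken up from the mucosa by the serotonin transporter (Slc6a4) of neighbouring absorptive cells, and monoamine oxidases A and B (Maoa, Maob) on the outer mitochondrial membrane break it down.

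The cells were GFP+ cells sorted from the small intestine of female Lgr5-EGFP mice, in which EGFP is expressed from Lgr5, a marker gene of intestinal stem cells (ISCs) and progenitors. All mice were made obese on a 60% fat diet for 16 weeks, were matched for body weight, had vertical sleeve gastrectomy (VSG) or sham surgery, and were killed 4 weeks later, after an overnight fast and 15 minutes after a liquid meal. The methods give an age of 8 to 16 weeks for the animals of all experiments, without saying at which step. A 6 cm piece of each segment was taken, and cells positive for CD45 (immune), CD31 (endothelial) or annexin V and dead cells were removed before the sort. The RNA-Seq libraries that the authors kept were 16, from 7 mice. The duodenum had 4 VSG and 2 sham libraries, the jejunum the same 4 and 2 mice, and the ileum 2 VSG and 2 sham mice. The authors left out further libraries for low mapping percentages: 1 of 3 sham libraries in each segment and 2 of 4 ileal VSG libraries. Their cut-off was lower in the ileum than in the other segments. Replicate numbers name the same mouse in the duodenum and the jejunum, and the sham numbers do so in all 3 segments, whereas ileal VSG replicate 1 is the mouse of VSG replicate 4 elsewhere and ileal VSG replicate 2 came from a mouse used for the ileum only. VSG and sham mice of the same number are different mice.

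The values are DESeq2-normalized counts, scaled for each segment separately, and an implied 10.9 to 63.6 M reads stood behind a library. A value of 0 can be a transcript lost in the estimate rather than an absent one, since 11.6%, 20.2% and 36.1% of the genes with a mean above 50 were listed at 0 in at least 1 duodenal, jejunal or ileal library. Lgr5 was at 884 to 6565 in the duodenal libraries, but was listed at 0 in sham replicate 1 of the jejunum and of the ileum. Of 6 immune genes, Cd3e, Coro1a and Cd79a were at 0 in every duodenal and ileal library, and the summed level of the 6 was 27.6 to 1665, 198 to 868 and 0 to 482 in the 3 segments. In each segment 7 of 8 mast cell genes, all but Hdc, were at 0 in every library. A pair of jejunal libraries stood apart. VSG replicate 1 had 196951 normalized counts of Fabp6, an ileal bile acid binding protein gene, against 15.8 to 313 in the other jejunal libraries, and sham replicate 1 had 47.1 M summed normalized counts against 33.5 to 34.5 M in the others. Duodenal sham replicate 2 had 1734 summed normalized counts of 6 endothelium and stroma genes and 2130 of 6 stomach genes. The other duodenal libraries had 0.722 to 194 and 145 to 1154. In sorted bulk cells, fewer cells of a type and less RNA per cell cannot be told apart. Whether mice of a group shared a litter or a day of surgery is not given in the sources used here, and the p-values measure the spread between these mice.

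The sequences upstream of the transcription start are shown for 3 genes on which the results turn: Maoa, which had the highest levels, Ddc, which has different starts for different tissues, and Tph1, which commits tryptophan to serotonin. They are the 250 bases before each start in RefSeq (GRCm38.p6), 5′ to 3′ on the strand of the gene, for 6 of the 8 genes, and capitals mark a GC box (GGGCGG) or a TATA box (TATAAA) on either strand. A GC box was in 32.7% and a TATA box in 12.4% of the 32851 promoter windows of the same length, and the median GC content of all windows was 52.4%. Each match is a description of letters and not of a bound site.
Maoa (chrX:16619448-16619697, plus strand): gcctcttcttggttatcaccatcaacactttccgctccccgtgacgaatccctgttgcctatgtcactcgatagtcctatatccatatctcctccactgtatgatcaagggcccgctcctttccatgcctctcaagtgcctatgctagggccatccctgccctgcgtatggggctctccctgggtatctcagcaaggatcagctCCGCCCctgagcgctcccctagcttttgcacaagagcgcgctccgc
Ddc, distal start (chr11:11898145-11898394, minus strand): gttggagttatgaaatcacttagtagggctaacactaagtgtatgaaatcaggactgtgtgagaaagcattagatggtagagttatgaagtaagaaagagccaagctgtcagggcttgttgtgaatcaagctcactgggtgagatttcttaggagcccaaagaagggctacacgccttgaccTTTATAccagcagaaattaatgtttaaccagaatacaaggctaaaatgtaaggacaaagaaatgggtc
Ddc, proximal start (chr11:11890409-11890658, minus strand): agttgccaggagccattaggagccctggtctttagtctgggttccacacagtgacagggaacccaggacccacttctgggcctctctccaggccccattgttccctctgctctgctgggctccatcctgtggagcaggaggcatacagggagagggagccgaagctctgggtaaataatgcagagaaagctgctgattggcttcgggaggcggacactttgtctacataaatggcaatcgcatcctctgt
Tph1, proximal start (chr7:46667378-46667627, minus strand): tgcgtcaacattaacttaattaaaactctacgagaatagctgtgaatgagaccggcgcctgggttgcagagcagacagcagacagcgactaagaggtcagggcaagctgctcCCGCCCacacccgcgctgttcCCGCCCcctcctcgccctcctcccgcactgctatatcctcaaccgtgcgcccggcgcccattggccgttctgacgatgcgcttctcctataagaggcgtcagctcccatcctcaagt

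The Maoa window held 1 GC box, 46 bases before the start, and had 56.8% GC. The distal Ddc window had 40.8% GC with 1 TATA box read on the opposite strand, and the proximal one had 56.0% GC with neither motif. In the proximal Tph1 window 2 GC boxes lay 138 and 117 bases before the start, and its distal window, not printed, held neither motif. Maoa and Maob lie tail to tail on the X chromosome, with 21463 bases between their 3′ ends in GENCODE M21 (Maoa at 16619698 to 16687818 on the plus strand, Maob at 16709282 to 16817366 on the minus strand). Ddc lies on chromosome 11 from 11814101 to 11898144, and Tph1 on chromosome 7 from 46644641 to 46672537, both on the minus strand. The counts of each gene cover all of its annotated transcripts, 10 for Ddc, 8 for Tph1, 4 for Maob and 1 for Maoa, so they do not say which start was used.

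The genes fell into 2 ranges of level. To compare genes and segments, counts were divided by the library's sum in M and by exonic length in kilobases, which gives the length-scaled level. The degrading enzymes, Ddc and the transporter Slc6a4 made up the upper range. Maoa had mean length-scaled levels of 271, 530.2 and 561 from duodenum to ileum, and ranked 443rd of 21545, 235th of 20445 and 202nd of 16413 genes listed above 0 in the segment. Maob was at 65.1, 147 and 171 on the same scale. Ddc was at 64.4, 81.6 and 34.6, and Slc6a4 was at 29.5, 38.1 and 37.8. In the lower range were the genes of the enterochromaffin cell itself. Tph1 had mean length-scaled levels of 2.82, 1.51 and 2.36 in the same order. Tac1 was at 4.74, 5.45 and 3.13, Slc18a1 at 2.11, 7.46 and 3.96, and Slc18a2 at 0.785, 0.882 and 0.275. Within a segment the lowest library of Slc6a4 (24.4, 31.2 and 28.9 from duodenum to ileum) was above the highest library of each of these 4 genes, the nearest being Slc18a1 in the jejunum, with 26.8. The lowest library of Maoa was above the highest of Maob in each segment. Maob and Ddc overlapped in the duodenum and the jejunum, whereas in the ileum Maob, at 75.8 to 328, was above Ddc, at 18.2 to 49.8. Ddc overlapped with Slc6a4, and Tph1, Tac1 and Slc18a1 overlapped with each other, in every segment.

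**Figure D1:**
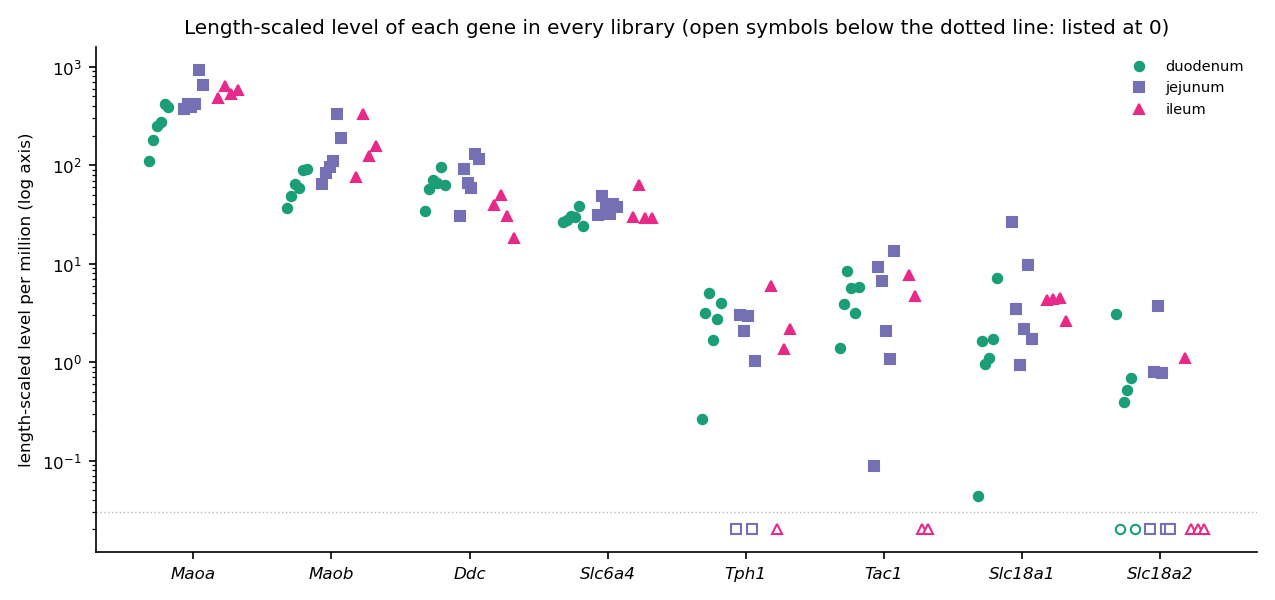
Length-scaled level (normalized count per M and kilobase) of each of the 8 genes (log axis) in the 6 duodenal, 6 jejunal and 4 ileal libraries; open symbols below the dotted line are libraries in which the gene is listed at 0. Maoa is the highest gene in each segment by its mean, and Tph1, Tac1, Slc18a1 and Slc18a2 lie below Slc6a4.

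Levels were set side by side between segments of the same mouse, with no test, because each table had been normalized on its own. Maoa was higher in the jejunum than in the duodenum in 6 of 6 mice, with a median difference of 0.96 (log2 of the count per M of the library's sum + 1), and so were Maob (median 0.88) and Slc6a4 (median 0.30). Ddc, which makes serotonin from 5-hydroxytryptophan and dopamine from L-DOPA, showed no such order between these segments and was higher in the jejunum in 3 of 6 mice. It was lower in the ileum than in the jejunum in 3 of 3 mice, by a median log2 difference of -2.04, and lower than in the duodenum in 3 of 3 mice (median -1.59). The ileum was also below the jejunum in 3 of 3 mice for Maob (median -0.61) and Slc6a4 (median -0.45), and in 2 of 3 mice for Maoa (median -0.31). The ileal means of Maoa and Maob were the higher ones, but they rest on partly different mice. They include the mouse used for the ileum only and lack 3 VSG mice of the jejunum. Tph1 was lower in the jejunum than in the duodenum in 5 of 6 mice (median -0.95).

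The comparison of VSG with sham asks whether surgery was followed by a different level of these genes in sorted cells of the same segment. Each segment was fitted with limma over all genes with a mean above 10, and a gene was called at the thresholds of the study. They ask for a mean above 50, a log2 fold change beyond 0.5 in either direction, and p under 0.05 before and 0.2 after adjustment. The test itself is not that of the study, which used DESeq2 and reported many more altered genes in each segment at these thresholds. The calls below are therefore not the outcome of the study's own fit. No gene of the 8 was called in any segment, where the share of all genes called was 0.0237% of 16867 tested (duodenum), 0.0126% of 15857 (jejunum) and 0% of 13853 (ileum). At an unadjusted limma p under 0.05 without the other conditions, Maoa and Maob were lower after VSG in the duodenum (2 of 8 genes, against 3.48% of all genes tested), and Maoa, Maob and Ddc were lower in the jejunum (3 of 8, against 2.40%). None of the 8 was higher at that level in the duodenum or the jejunum, where 2.79% and 3.63% of all genes were. In the ileum 0 of 8 had an unadjusted p under 0.05 in either direction, against 1.19% of all genes lower and 2.09% higher. Over the 8 genes the median log2 fold change was -0.79 in the duodenum, where that of all genes tested was 0.01. The jejunal median was -0.82, or -1.24 over the 7 genes without a group listed at 0, beside 0.11 for all genes. The ileal median was 0.27, or 0.061 over the 6 such genes, beside 0.24 for all genes.

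**Figure D2:**
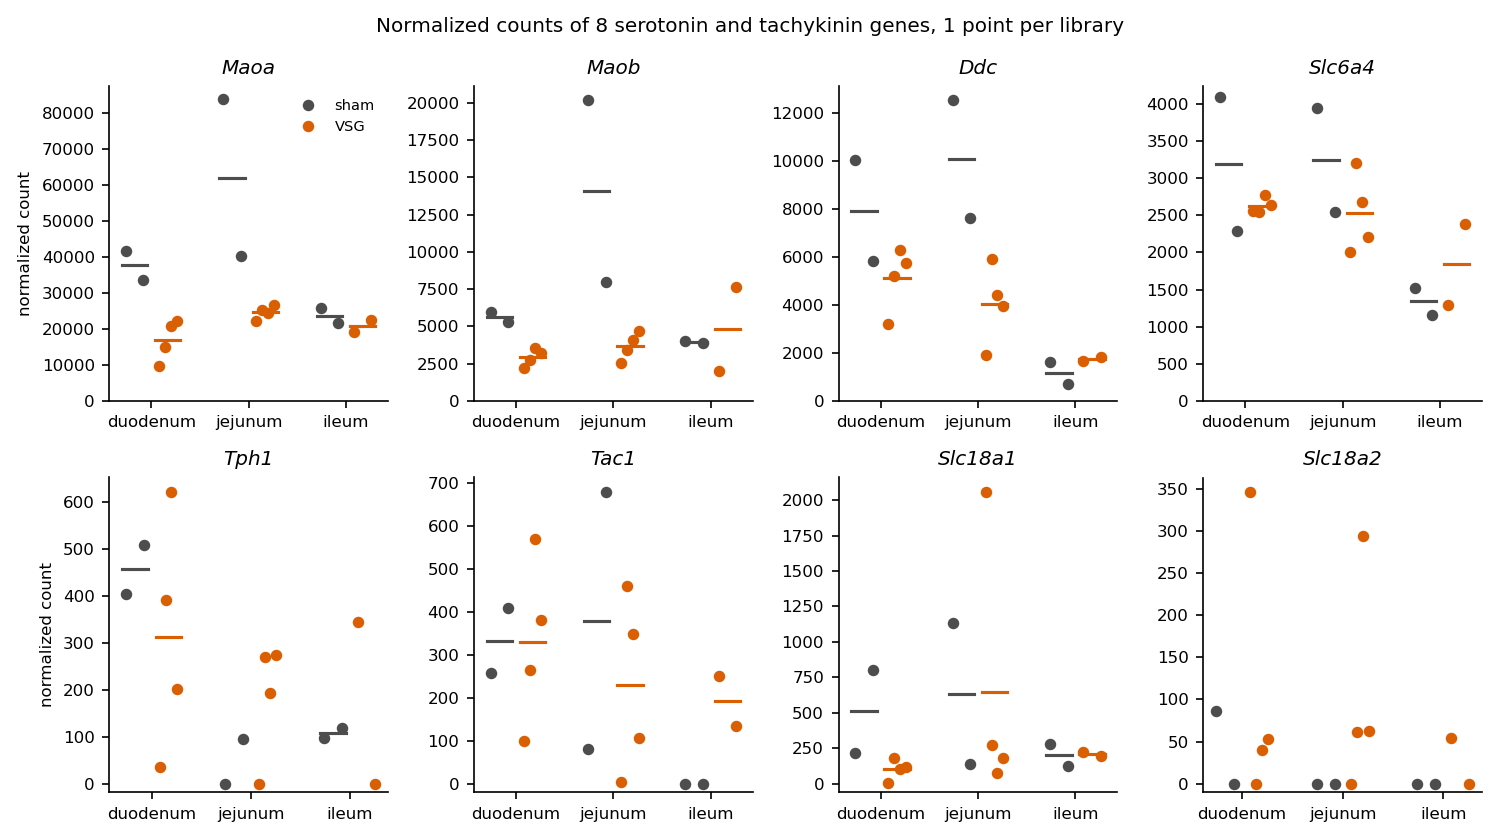
Normalized counts of the 8 genes by segment, 1 point per library (sham grey, VSG orange), with a line at the mean of each group that has no library listed at 0. All 4 VSG libraries lie below both sham libraries for Maoa and Maob in the duodenum and the jejunum and for Ddc in the jejunum.

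The oxidases had the lowest unadjusted p-values of the 8 genes in the duodenum and the jejunum. In the duodenum Maoa, the enzyme that prefers serotonin as its substrate, had normalized counts of 9815, 15052, 20788 and 22262 after VSG (replicates 1 to 4, the order used throughout) and of 41574 and 33758 after sham surgery. All 4 VSG libraries were below both sham libraries. The means were 16979 ± 5699 (SD, n = 4) and 37666 ± 5526 (SD, n = 2), a ratio of 0.451, and the log2 fold change was -1.21 ± 0.33 (SE). By limma the adjusted p was 0.485, and an exact permutation test gave p = 0.133, where 0.0667 is the smallest value that 4 against 2 libraries allow. In the jejunum Maoa was at 22321, 25422, 24539 and 26597 after VSG and at 83890 and 40290 after sham surgery. The VSG libraries lay close together and again below both sham libraries, which differed from each other by more than the VSG libraries did. The log2 fold change was -1.24 ± 0.38 (SE), with an adjusted limma p of 0.760 and an exact permutation p of 0.0667. In the ileum the VSG libraries had 19047 and 22391 and the sham libraries 25813 and 21675 normalized counts. These groups overlapped, and the log2 fold change was -0.20 ± 0.29 (SE; limma adjusted p = 0.809).

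Maob, the other oxidase, was also lower in these segments. Its duodenal counts were 2194, 2749, 3562 and 3225 after VSG and 5976 and 5270 after sham surgery, with no overlap. The ratio of means was 0.522 and the log2 fold change -0.96 ± 0.26 (SE; limma adjusted p = 0.485, exact permutation p = 0.0667). In the jejunum Maob had 2569, 3407, 4109 and 4716 normalized counts after VSG against 20216 and 7965 after sham surgery, a ratio of means of 0.263. The log2 fold change of -1.81 ± 0.42 (SE) ranked 32nd by p among the genes tested, with an adjusted limma p of 0.760 and an exact permutation p of 0.0667. Without sham replicate 1, which stood apart, the jejunal log2 fold changes were -0.71 for Maoa and -1.14 for Maob. Without this library and VSG replicate 1, both of which stood apart, they were -0.66 and -0.98, with unadjusted limma p-values of 0.0216 and 0.0282. These fits set 4 or 3 VSG libraries against 1 sham library, which is assumed to vary as the VSG libraries do. With sham replicate 2 left out instead, the jejunal log2 fold changes were -1.77 for Maoa and -2.49 for Maob. Only sham replicate 1, which stood apart, was then left in the sham group. In the ileum Maob was at 2005 and 7625 after VSG and 4052 and 3853 after sham surgery, so that 1 VSG library lay below and the other above both sham libraries.

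Duodenal Ddc had 3229, 5203, 6300 and 5734 normalized counts after VSG, and 10064 and 5820 after sham surgery. The groups overlapped there, since VSG replicate 3 was above sham replicate 2, and the log2 fold change was -0.62 ± 0.33 (SE; limma adjusted p = 0.857). In the jejunum it was at 1934, 5910, 4431 and 3952 after VSG and at 12546 and 7631 after sham surgery. All 4 VSG libraries were below both sham libraries, the ratio of means was 0.402, and the log2 fold change was -1.38 ± 0.45 (SE; limma adjusted p = 0.760, exact permutation p = 0.0667). Without both libraries that stood apart it was -0.70, with an unadjusted limma p of 0.10. In the ileum Ddc was at 1668 and 1851 after VSG and 1603 and 721 after sham surgery, with both VSG libraries above both sham libraries. That log2 fold change was 0.71 ± 0.67 (SE), the adjusted limma p was 0.736 and the exact permutation p 0.333, the smallest that 2 against 2 libraries allow. The groups did not overlap, with VSG lower, for 3 of 8 genes in the duodenum (Maoa, Maob and Slc18a1), against 8.01% of all genes tested, and for 3 of 8 in the jejunum (Maoa, Maob and Ddc), against 6.21%. In no gene of the 8 did all VSG libraries lie above the sham libraries in the duodenum or the jejunum, as they did for 6.44% and 6.59% of all genes. In the ileum, with smaller groups, 2 of 8 genes (Ddc and Tac1) had both VSG libraries above, against 17.0% of all genes, and 0 of 8 had them below, against 11.6%.

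**Figure D3:**
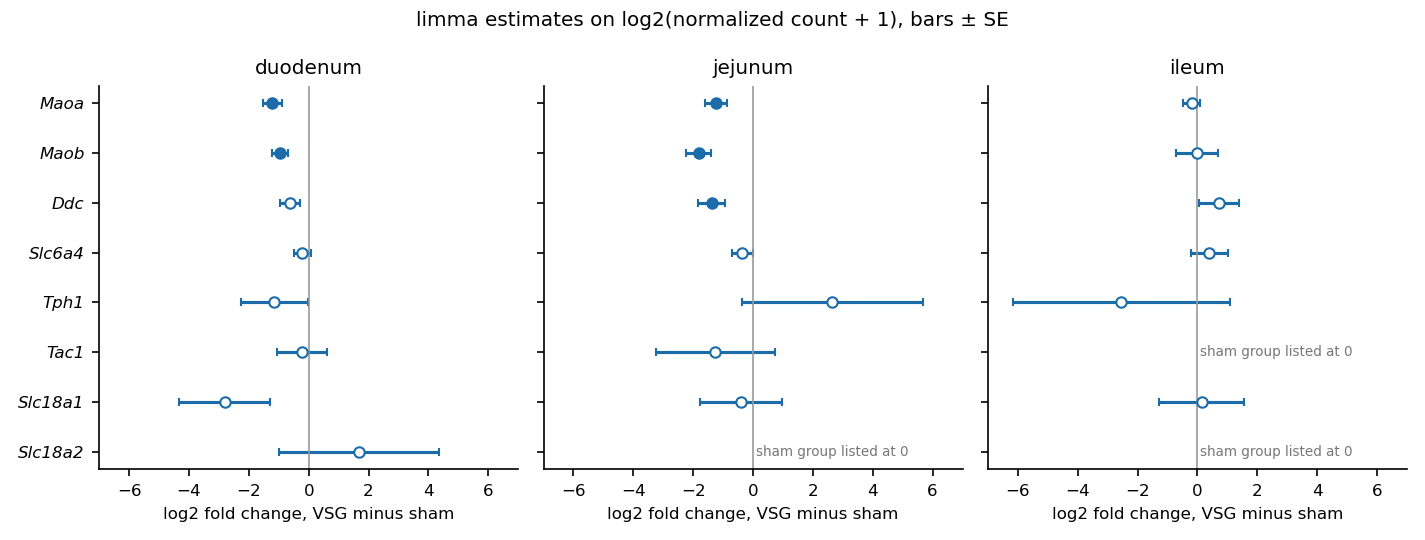
Log2 fold change of VSG against sham ± SE from limma for each gene and segment; filled points have an unadjusted p under 0.05, and no fold is drawn where the sham group is listed at 0. Maoa and Maob lie left of 0 in the duodenum and the jejunum, with Ddc beside them in the jejunum, and near 0 (Maoa, Maob) in the ileum.

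Slc6a4, the transporter that removes serotonin from the extracellular space, had 2559, 2540, 2768 and 2644 normalized counts in the duodenum after VSG and 4094 and 2283 after sham surgery. The VSG libraries lay between the sham libraries, and the log2 fold change was -0.22 ± 0.29 (SE; limma adjusted p = 0.912). Jejunal libraries had 2008, 3209, 2676 and 2203 after VSG and 3949 and 2550 after sham surgery (log2 fold change -0.35 ± 0.37 SE, limma adjusted p = 0.817). In the ileum it had 1292 and 2386 normalized counts after VSG and 1527 and 1160 after sham surgery. The groups overlapped in each segment.

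Markers of absorptive cells, taken as a sum, were lower after VSG without overlap in the duodenum, whereas the groups overlapped in the jejunum and the ileum. The summed level of 8 enterocyte genes (Sis, Alpi, Apoa4, Apoc3, Apoa1, Fabp1, Enpp7 and Lct) in the duodenum was 244662 to 480595 normalized counts after VSG, against 543332 and 809682 after sham surgery. The jejunal sum was 214016 to 660460 after VSG and 532671 and 1516720 after sham surgery, the latter in sham replicate 1, and in the ileum 135447 and 337802 after VSG and 249651 and 261763 after sham surgery. The log2 fold change of all 8 enterocyte genes was below 0 in the duodenum (median -1.33) and in the jejunum (median -1.72), and 6 and 3 of them had an unadjusted limma p under 0.05. The list is not independent of these data, since the paper reports Sis, Alpi, Enpp7 and Apoc3 as decreased after VSG in these segments. The 3 jejunal genes at that p, Apoc3, Enpp7 and Alpi, are among them. Without jejunal sham replicate 1, the jejunal median was -1.10, with 7 of 8 genes below 0. Without both jejunal libraries that stood apart it was -0.47, again with 7 of 8 genes below 0. Each of these fits leaves 1 sham library. None of the 8 enterocyte genes was at 0 in every library. Other marker lists differed as well, with 0 genes called. The summed level of 6 tuft cell genes was 15556 to 35694 after VSG and 4848 and 12598 after sham surgery in the duodenum, where 6 of 6 genes had an unadjusted limma p under 0.05. In the jejunum the tuft sums overlapped, at 6218 to 21386 and 1367 and 12594, with 3 of 6 genes higher at that p and 0 without sham replicate 1. Of 6 goblet cell genes, 1 (Agr2) was higher at that p in the duodenum and 3 (Agr2, Muc2 and Clca1) in the jejunum, or 0 without sham replicate 1, and their sums overlapped in both segments. The sum of 6 immune genes was 177 to 1665 after VSG and 27.6 and 86.8 after sham surgery in the duodenum, without overlap, and 218 to 868 and 198 and 475 in the jejunum, with overlap. In the duodenum 2 of 6 endothelium and stroma genes (Col1a1 and Cdh5) and 1 of 6 stomach genes (Tff1) were lower after VSG at an unadjusted limma p under 0.05. These lists' part in the levels of the 8 genes was not tested. Per 1000 normalized counts of the 8 enterocyte genes, a ratio chosen after its values were seen, Maoa was in the duodenum at 36.9 to 82.6 after VSG and 51.3 and 62.1 after sham surgery, and at 38.5 to 104 and 55.3 and 75.6 in the jejunum. These groups overlapped in both segments. The same ratio for Maob was 6.75 to 12 after VSG and 7.38 and 9.70 after sham surgery in the duodenum. The jejunal ratio was 5.16 to 12.5 after VSG and 13.3 and 15 after sham surgery, with no overlap, as for 0.959% of all genes tested (1.36% in the duodenum and 5.29% in the ileum had VSG lower). For Ddc the ratio was 12.8 to 21.3 against 10.7 and 12.4 in the duodenum, with VSG above, and 8.95 to 11.3 against 8.27 and 14.3 in the jejunum, with overlap. Slc6a4 had all VSG libraries above the sham libraries on this ratio in each segment, with 5.76 to 10.5 against 4.20 and 5.06 (duodenum), 4.86 to 9.38 against 2.60 and 4.79 (jejunum) and 7.06 and 9.54 against 4.43 and 6.12 (ileum). As many as 33.0%, 16.5% and 17.8% of all genes tested had VSG above sham on this ratio in the duodenum, jejunum and ileum, and 1.88% of the 12587 genes tested in all 3 had this order in each. The part of the enterocyte genes in the levels of Maoa, Maob and Ddc was not tested.

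**Figure D4:**
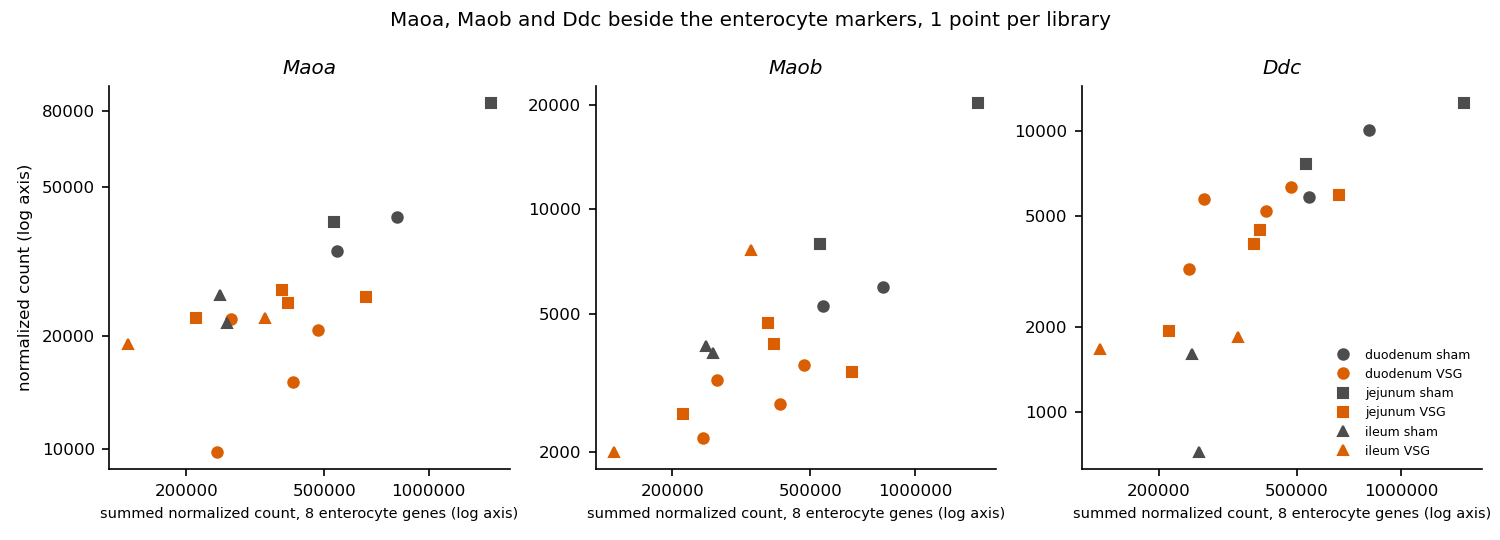
Normalized count of Maoa, Maob and Ddc against the summed normalized count of 8 enterocyte genes (both log axes), 1 point per library (shape for segment, grey for sham, orange for VSG). The sham library of the jejunum with the highest enterocyte sum, 1516720, also has the highest Maoa, Maob and Ddc counts.

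Tph1 was low and uneven. The summed level of 8 EEC genes was in the duodenum 15472 to 20912 normalized counts after VSG and 13822 and 17659 after sham surgery, while in the jejunum it was 6357 in VSG replicate 1, 6346 in sham replicate 1 and 13838 to 29499 in the other 4. The ileal sums were 5444 and 8390 after VSG and 2298 and 3435 after sham surgery, without overlap, an order that 17.0% of all genes tested had. At an unadjusted limma p under 0.05, Chgb was higher in the ileum, and Pcsk1 and Scg5 in the jejunum. Scg5 was listed at 0 in both jejunal sham libraries, and Pcsk1 had a log2 fold change of -0.00017 without sham replicate 1. The part of EEC content in the levels of Tph1, Tac1 and the vesicular transporters was not tested. In the duodenum Tph1 had 35.2, 392, 622 and 202 normalized counts after VSG and 405 and 509.9 after sham surgery, which overlapped (log2 fold change -1.14 ± 1.10 SE, limma adjusted p = 0.882). The jejunal values were 0 in VSG replicate 1 and 271, 193 and 274 in the others, against 0 and 95.3 in the sham libraries. Leaving out sham replicate 1 turned the jejunal log2 fold change from 2.65 to -0.64, so no direction can be read from it. In the ileum it was at 346 and 0 after VSG and at 97.6 and 118 after sham surgery. Set against Chga (chromogranin A, a granule protein of EECs) in the same library, the log2 ratio of Tph1 to Chga was in the duodenum -6.26 to -2.23 after VSG and -2.80 and -2.46 after sham surgery, also with overlap.

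Tac1, the gene of substance P and neurokinin A, had duodenal counts of 99.9, 265, 570.4 and 382 after VSG and of 257 and 408 after sham surgery. The group means were 329 ± 198 (SD, n = 4) and 332 ± 107 (SD, n = 2). Its jejunal counts were 4.25, 461, 348 and 107 after VSG and 79.9 and 679 after sham surgery, again with overlap. In the ileum it had 250.3 and 134 normalized counts after VSG and was listed at 0 in both sham libraries, so no fold is given. These sham libraries had the fewest implied reads (21.5 and 10.9 M, against 36.4 and 32.0 M after VSG), and a count of 0 in them allows up to 3.49 and 6.21 normalized counts by counting error alone, while the exact permutation p was 0.333. The log2 ratio of Tac1 to Tph1 in the jejunum was -1.35 to 2.39 after VSG and 6.34 and 2.82 after sham surgery, where the sham values and the highest VSG value rest on libraries in which Tph1 was below 100 normalized counts.

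The vesicular transporters were uneven too. Slc18a1, the form typical of endocrine cells, had duodenal counts of 5.01, 178, 104 and 117 after VSG and of 219.6 and 801 after sham surgery. All VSG libraries were below both sham libraries, but the sham libraries were also far from each other. The log2 fold change was -2.80 ± 1.52 (SE; limma adjusted p = 0.859, exact permutation p = 0.2). The higher sham value came from replicate 2, the duodenal library with the most endothelium, stroma and stomach counts, whose part in it was not tested. The log2 ratio of Slc18a1 to Chga was -8.85 to -4.26 after VSG and -3.68 and -1.81 after sham surgery in the duodenum, with VSG lower. The share of all genes with such an order on this ratio was not counted. In the jejunum the ratio was -5.74 to 0.76 after VSG and 2.06 and -5.04 after sham surgery, with overlap. The ileal ratios overlapped too, at -2.30 and -2.67 after VSG and -2.07 and -2.63 after sham surgery. In the jejunum Slc18a1 had 2057 normalized counts in VSG replicate 1 and 273, 76.4 and 179 in the other VSG libraries, against 1134 and 137 after sham surgery. In the ileum it was at 220.1 and 198 after VSG and 283 and 127 after sham surgery, and the groups overlapped in both segments. Slc18a2, the form also used by neurons and mast cells, was listed at 0 in 8 of 16 libraries. The mast cell genes were almost all at 0, as given above. The 6 enteric neuron and glia genes summed to 79.4 to 318, 0 to 181 and 0 to 231 normalized counts from duodenum to ileum. This sum was 90.0 in duodenal VSG replicate 1 and 46.2 in jejunal VSG replicate 3, the libraries with the highest Slc18a2 values. The part of neurons or mast cells in the level of Slc18a2 was not tested. The highest Slc18a2 values were 346 in duodenal VSG replicate 1 and 294 in jejunal VSG replicate 3. Both jejunal and both ileal sham libraries were listed at 0, and the other values above 0 lay between 40.5 and 85.9. Slc18a1 was above Slc18a2 in 14 of 16 libraries.

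The direct test of whether the effect of VSG differed between segments used each mouse's jejunal minus duodenal log2 value, in 6 mice. None of the 8 genes was called, as 0% of 14718 genes tested were, and none had an unadjusted limma p under 0.05, against 4.10% of all genes. The difference of log2 fold changes, jejunum minus duodenum, was -0.02 ± 0.40 (SE; limma adjusted p = 1.00) for Maoa, -0.85 ± 0.40 (SE; limma adjusted p = 0.948) for Maob and -0.75 ± 0.36 (SE; limma adjusted p = 0.948) for Ddc. For Slc6a4 it was -0.13 ± 0.38 (SE). The ileum shares only 1 VSG mouse with the other segments, so its difference from them was not tested.

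Over the 16 libraries, each centred on its segment mean of log2(normalized count + 1), Maoa and Maob had a Pearson r of 0.854, and Ddc had 0.754 with Maoa, 0.731 with Maob and 0.758 with Slc6a4. Tph1 had an r of 0.0267 with Ddc and 0.263 with Tac1. These values share the surgery groups, the mice and the scaling of each library. Of 10712 genes with a mean above 50 in every segment, those most like Ddc were Sar1b (r = 0.929), Cyp2c68 (0.925), Slc28a1 (0.925), Sec14l2 (0.915) and Uso1 (0.909). Those most like Tph1 were Pradc1 (r = 0.948), Zfp617 (0.934), Zbtb26 (0.930), Atad5 (0.927) and Creb3 (0.904), but without the 3 libraries in which Tph1 was listed at 0 none of these stayed among the first 5, with r from 0.134 to 0.807 over 13 libraries.

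The other genes of the pathway were taken from 4 lists. Of 13 genes for tryptophan supply and for tetrahydrobiopterin, the cofactor of tryptophan hydroxylase, 12, 12 and 11 were tested in the duodenum, jejunum and ileum. Slc6a19, the main apical carrier of neutral amino acids including tryptophan, had an unadjusted limma p under 0.05 in all 3 segments, and was lower after VSG in each. Its duodenal counts were 2407 to 4269 after VSG (n = 4) and 8863 and 10856 after sham surgery, with a log2 fold change of -1.51 ± 0.28 (SE; limma adjusted p = 0.292). In the jejunum Slc6a19 had 8811, 9292, 6270 and 6246 normalized counts after VSG and 21880 and 9142 after sham surgery. The groups overlapped there, since VSG replicate 2 was above sham replicate 2, and the log2 fold change of -0.91 ± 0.40 (SE; limma adjusted p = 0.760) was -0.28 without sham replicate 1, with an unadjusted limma p of 0.431. The ileal log2 fold change was -1.60 ± 0.48 (SE; limma adjusted p = 0.736), from 4747 and 10861 after VSG and 19344 and 24554 after sham surgery, without overlap. Slc16a10, a basolateral carrier of aromatic amino acids, was lower in the jejunum, with 1816 to 6154 normalized counts after VSG and 6354 and 17892 after sham surgery (log2 fold change -1.36 ± 0.56 SE, limma adjusted p = 0.760, and -0.62 without sham replicate 1). None of the list was higher at an unadjusted p under 0.05 in any segment. Its median log2 fold changes were -0.09, -0.58 and 0.12, beside medians of all genes of 0.01, 0.11 and 0.24, and the jejunal one was -0.36 without sham replicate 1. Tph2, the neuronal tryptophan hydroxylase, was listed at 0 in every library.

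The list of other uptake and metabolism genes (15 genes, 9, 8 and 8 tested) had 0 genes with an unadjusted limma p under 0.05 in any segment. The aldehyde dehydrogenases that act after the oxidases were abundant in it, Aldh1b1 with 35285 to 46334 normalized counts after VSG and 43315 and 57200 after sham surgery in the duodenum, and Aldh2 with 10109 to 15224 and 13626 and 15508. The median log2 fold changes of the list were -0.21, -0.01 and 0.85, or -0.30, -0.25 and 0.64 without genes that have a group listed at 0. Of 19 receptor and other tachykinin genes, 3, 2 and 3 were tested, with 0 at an unadjusted p under 0.05. The highest of them in the duodenum was the serotonin receptor gene Htr4, with 113 to 405.5 normalized counts after VSG and 98.6 and 140.5 after sham surgery.

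The last list held genes of the enterochromaffin cell. Of its 11 genes, 11, 10 and 9 were tested, and the median log2 fold changes were 0.09, 1.29 and 1.95 from duodenum to ileum (0.07, 1.26 and 1.11 without genes that have a group listed at 0), beside the medians of all genes given for the first list. The jejunal median rested on sham replicate 1: without it the median was -0.32, beside -0.023 for all genes, with 3 of 10 genes above 0 in place of 9 of 10. Adra2a, an adrenergic receptor gene, had 731 to 967 normalized counts in the jejunum after VSG, above the 45.8 of sham replicate 1 and below the 995 of sham replicate 2. Reg4 was at 1977 to 7864 after VSG and at 599 and 5017 after sham surgery. Nkx2-2, a transcription factor of EEC differentiation, was at 313 to 1482 in the duodenum after VSG, against 96.7 and 99.7 after sham surgery, with a log2 fold change of 2.63 ± 0.76 (SE; limma adjusted p = 0.522). Chgb, a secretory granule protein, had 2904 and 3672 in the ileum after VSG and 738 and 971 after sham surgery (log2 fold change 1.95 ± 0.55 SE, limma adjusted p = 0.736). No other gene of the list had an unadjusted limma p under 0.05 in any segment. Chga was at 2769 to 3458 after VSG and 2812 and 2827 after sham surgery in the duodenum, at 1215 to 4131 and 270.3 and 4544 in the jejunum, and at 1085 and 1263 and 791 and 1190 in the ileum.

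**Figure D5:**
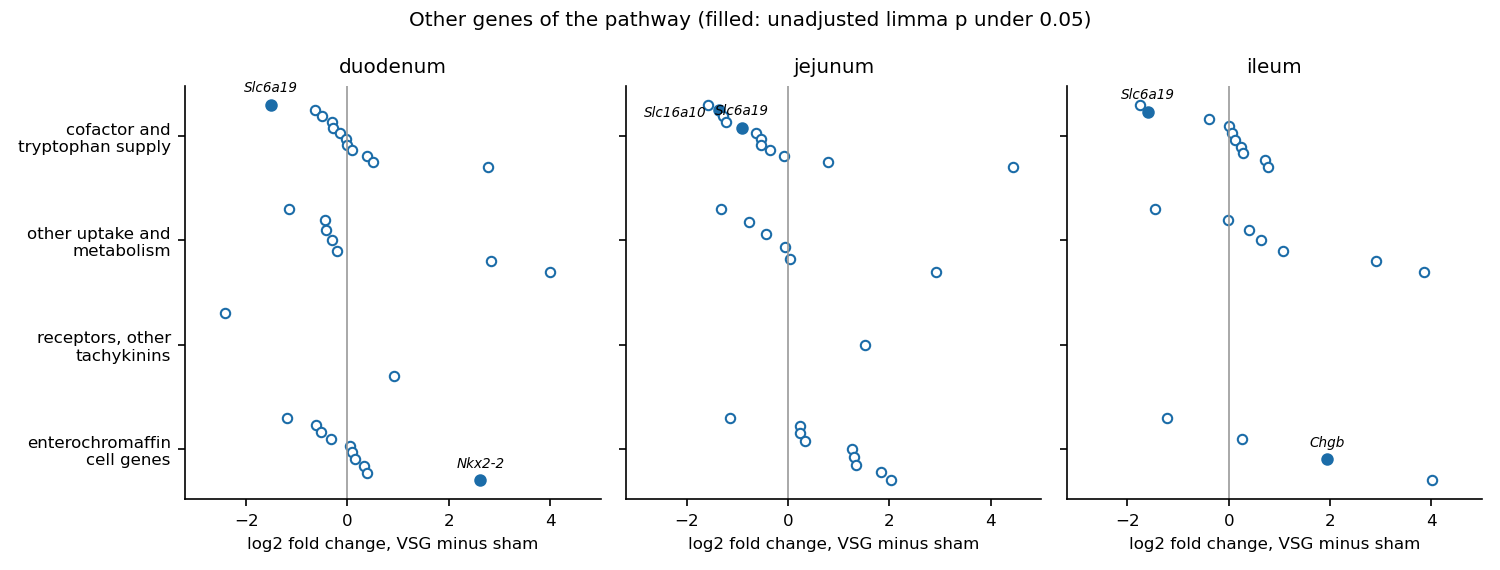
Log2 fold change of VSG against sham from limma for the tested genes of 4 lists (1 point per gene, without genes that have a group listed at 0); filled points have an unadjusted p under 0.05 and are named. Slc6a19 lies left of 0 in all 3 segments, and 8 of 9 enterochromaffin cell genes lie right of 0 in the jejunum, but 2 of 9 without sham replicate 1.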

How the data were processed

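RNA-Seq libraries of GFP+ cells were compared between VSG and sham mice within the duodenum (4 and 2 libraries), the jejunum (4 and 2) and the ileum (2 and 2). The authors mapped single-end reads of 85 nt to mm10 (STAR 2.5.3a), quantified transcripts (Salmon 0.6.0) and deposited a normalized signal per gene and library, counts divided by DESeq2 factors within each segment. The annotation they used is not given in the sources used here. A count model was not used, because most values are not a whole number of reads times a factor of the library. For Maoa, 16 of 16 values were whole within 0.02 reads. The deposited tables of the authors' own fold changes and p-values were not used.

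The fit of each table (limma 3.58.1, R 4.3.3, with a variance trend) used log2(normalized count + 1) for genes with a mean above 10, and p-values were adjusted by Benjamini-Hochberg over all genes tested. All tests are two-sided. Fold changes are differences of group means on this log2 scale. For low genes with values at or near 0 they can differ from the ratio of means in size and even in direction. Ileal Tph1, for example, had a log2 fold change of -2.54 and a ratio of means of 1.60. Single genes had exact permutation tests over all 15 or 6 assignments. The genes and lists were chosen with earlier results of these data known. Named beside the 8 genes are list genes with an unadjusted p under 0.05 and up to 3 of the highest mean per list, and the 5 genes most correlated with Tph1 and with Ddc. Other genes, such as Tph2, Htr4 in the duodenum and Fabp6, were named after their values were seen. Lengths and positions are from GENCODE M21 (GRCm38), which matched 48058 identifiers. Python 3.11.15 made the tables and plots. The steps were tested on simulated data. Alternatives were pseudocounts of 0.5 and 10, no filter or a mean above 50, quantile normalization, equal library totals, a replicate block, an adjusted p under 0.05, limma without trend, leaving out each library and, chosen after seeing the data, leaving out both jejunal libraries that stood apart, the gene lists without these libraries, and the correlations with Tph1 without libraries at 0.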

Additional observations from a re-analysis of the deposited data

Results flagged for a closer look

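In groups of 4 libraries a value far from the other 3 was looked for by Dixon's 95% criterion, which chance meets in about 1 of 20 groups. Slc18a2 in duodenal VSG replicate 1 had 346 normalized counts, against 0 to 53.3 in the other 3 VSG libraries of the duodenum. Slc18a1 in jejunal VSG replicate 1 had 2057 normalized counts, against 76.4 to 273 in the other 3, and this is the library with the ileum-like Fabp6 count. Both values come from the same mouse.

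For Ddc all VSG libraries lay below the sham libraries in the jejunum and above them in the ileum. The ileal log2 fold change was 2.09 above the jejunal one, a difference that was not tested.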

How the results depend on the processing

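Under every alternative the log2 fold changes of Maoa, Maob and Ddc stayed below 0 in the duodenum and the jejunum (84 of 84 values). Of the 276 values of the 8 genes, 257 kept their sign. They leave out Slc18a2 in the jejunum and the ileum and Tac1 in the ileum, where the sham group was listed at 0. Depth limits the ileum most, where a sham library had an implied 10.9 M reads, and with 2 sham libraries each value rests on single mice. Where 1 library of a group was left, it was assumed to vary like those of the other group. The cause of the values below was not tested.

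The count of the 8 genes called was 0 in the duodenum under each alternative. In the jejunum it was 0 under each alternative that kept 2 sham libraries. In the ileum it was 1 in limma without trend, namely Tac1, whose sham libraries are listed at 0. With that setting 463 of 13853 genes were called. The count of the 8 was 0 under the other ileal alternatives that kept 2 libraries per group. For the difference between jejunum and duodenum it was 0 under each alternative that kept both sham mice. In these cases the count is not given for fits that left 1 library in a group. The count with an unadjusted limma p under 0.05 was 2 in the duodenum and 3 or 4 in the jejunum when 1 VSG library was left out. The 4, found without jejunal VSG replicate 1, were 3 genes lower and 1 higher after VSG. Without duodenal sham replicate 1 the unadjusted limma p of Maoa was 0.105. In the ileum this count was 1 with a filter at a mean of 50 and in limma without trend, and 1 to 3 when 1 library was left out. For the difference it was 0 to 2. Over all genes the count called moved from 4 to 43 in the duodenum, from 2 to 61 in the jejunum and from 0 to 463 in the ileum in limma without trend, and ranged from 0 to 259, 1 to 2710 and 0 to 631 when 1 library was left out. It was 0 in the duodenum with a pseudocount of 0.5, no filter, a filter at a mean of 50, equal library totals, an adjusted p under 0.05 or the block, 10 with a pseudocount of 10, and 48 in the jejunum without both libraries that stood apart. For the difference it moved from 0 to 4 in limma without trend and 0 to 782 when 1 library was left out.

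The numbers in the labels were used as a replicate block in the duodenum only, where they are printed. Same-numbered VSG and sham libraries are different mice, and their deviations correlated at -0.05 and -0.03, so the numbers do not pair them. With the block 0 of the 8 genes were called and 2 had an unadjusted limma p under 0.05, with log2 fold changes of -1.62 for Maoa and -1.19 for Maob. VSG replicates 3 and 4 have no sham library of their number. The block fit therefore rests on replicates 1 and 2 only, and its larger fold changes are not a check over all duodenal libraries.

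When 1 library was left out, the log2 fold change ran from -1.55 to 4.89 for Slc18a2, -0.64 to 0.20 for Slc6a4 and -0.58 to 0.26 for Tac1 in the duodenum. In the jejunum it ran from -0.64 to 5.95 for Tph1, -1.93 to 1.11 for Slc18a1 and -2.80 to 0.27 for Tac1. In the ileum it ran from -6.76 to 1.68 for Tph1, -0.44 to 0.71 for Slc18a1, -0.043 to 0.84 for Slc6a4 and -0.98 to 0.95 for Maob. Without both jejunal libraries that stood apart, Slc18a1 was at 0.18 and Slc6a4 at 0.063 in the jejunum. Quantile normalization gave -0.078 for Slc18a1 and 0.043 for Maob in the ileum, and equal library totals gave 0.094 for Maob. The jejunal minus duodenal difference ran from -0.059 to 4.84 for Slc18a1, -0.40 to 0.35 for Maoa and -2.23 to 0.17 for Tac1 when 1 mouse was left out. It was 0.22 for Maoa with quantile normalization, and 0.12 for Maoa and 0.012 for Slc6a4 with equal library totals. Equal totals moved the median of all genes from 0.11 to 0.33 in the jejunum and quantile normalization moved it from 0.24 to 0.04 in the ileum.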
